A study of Homo sapiens with 11 samples.

Results

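Keratins are the intermediate filament proteins of epithelial cells, and 10 of their genes are described here: KRT7, KRT8, KRT18 and KRT19 of simple (luminal) epithelium, KRT5, KRT14, KRT17 and KRT6A of basal or stratified epithelium, and KRT80 and KRT81. They are picked out by symbol, with no threshold on measured values but with earlier results of these data known, and all 10 were found among 55 keratin symbols and 28152 gene symbols in the deposited tables. A keratin filament is built from pairs of an acidic type I chain and a basic type II chain, so each cell type makes at least one of each. KRT14, KRT17, KRT18 and KRT19 encode type I chains and the other 6 genes encode type II chains. In the breast, KRT8 with KRT18 or KRT19 is the usual pair of luminal cells and KRT5 with KRT14 the usual pair of basal and myoepithelial cells, while KRT6A and KRT17 are known as keratins of wounded and rapidly dividing epithelium.

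RNA was sequenced from 11 xenografts labelled BT-474, a human breast carcinoma line that the labels call HR+ and Her2+, grown in the mammary fat pad of female athymic nude mice. All mice carried a pellet of 0.72 mg estradiol lasting 90 days and entered treatment once tumours exceeded 95 mm3. The 6 vehicle libraries came from mice given 5% mannitol in water, and the 5 evexomostat libraries from mice given 12 mpk evexomostat (SDX-7320, an inhibitor of methionine aminopeptidase 2) in the same solution, both subcutaneously every 4 days, with day 33 given for all. The labels give 1 tumour per library but identify no animal, cage or litter, so p-values measure the spread between these libraries.

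Library totals ran from 22808033 to 39249329 counts, and 3 counts, taken as the detection floor, corresponded to 0.0764 to 0.132 RPM (reads scaled to a common library total). Vehicle 001 was unlike the rest: its top 100 genes held 23.9% of counts, against 16.2% to 17.9% in the other 10 libraries, so results are given with and without it where they differ. Of 16653 genes tested by edgeR's quasi-likelihood method, 101 (0.606%) passed an adjusted p of 0.05, 29 higher and 72 lower under evexomostat. Without vehicle 001 the number was 865 of 16565 (5.22%).

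None of the 10 keratins passed the test of evexomostat against vehicle, beside the 0.606% of all tested genes that did. All 10 were tested, 4 with a higher and 6 with a lower estimate, and their median log2 fold change was -0.18 beside -0.04 over all tested genes. Unadjusted p was under 0.05 for 0 of the 10, beside 2225 of the 16653 genes (13.4%). That count was 0 to 3 of 10 on leaving out 1 library, with 3 without vehicle 007 and 2 without vehicle 001, and it was 3 with quality weights. Vehicle and evexomostat libraries overlapped for every one of the 10, while 495 genes (2.97%) did not overlap. With vehicle 001 left out the count of keratins past the threshold was again 0 of 10, beside the 5.22% above. It was 0 of 10 in limma-voom with sample quality weights, beside 1059 genes (6.36%), and 0 of 10 in the authors' deposited table, beside 268 of 28152 genes (0.952%).

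**Figure D1:**
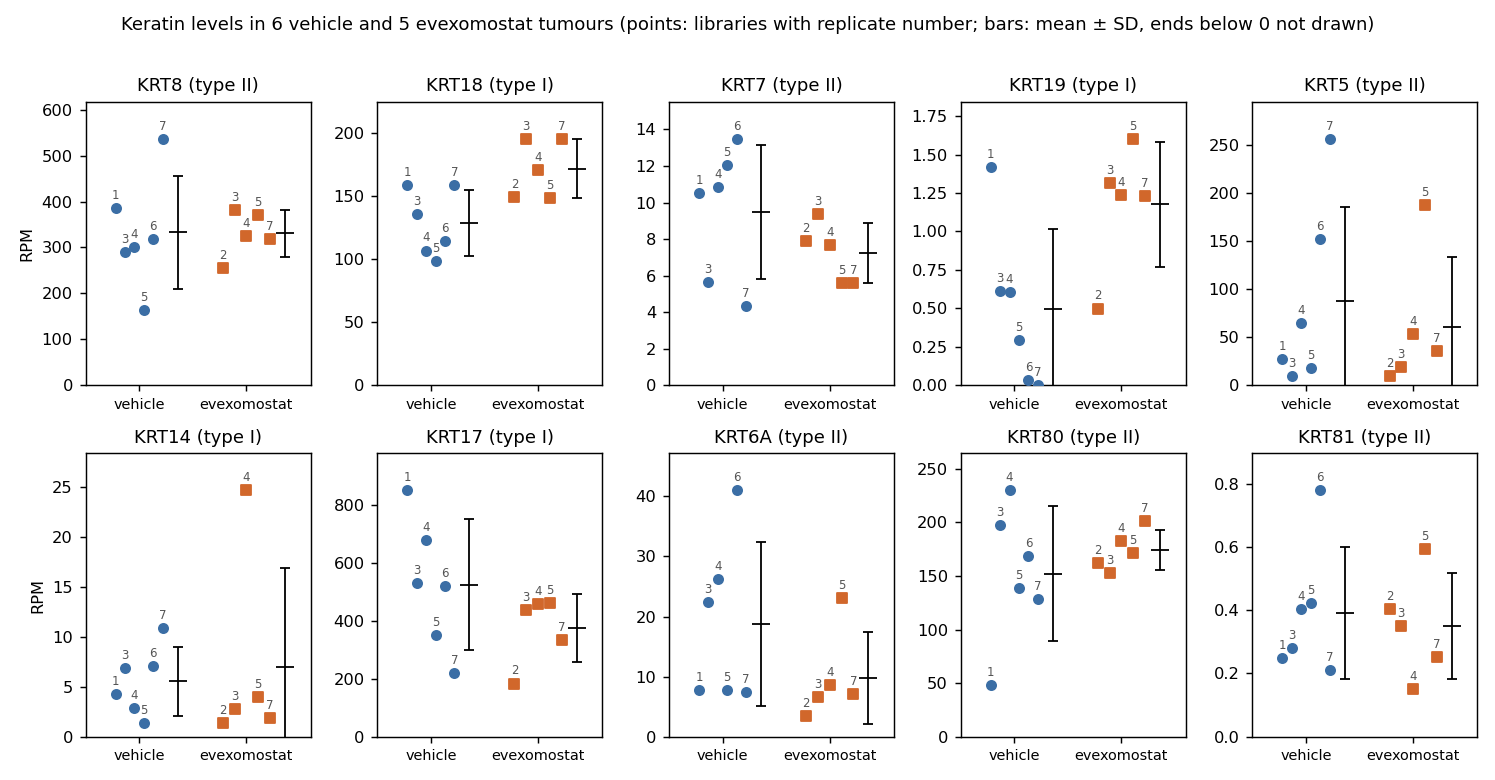
RPM of the 10 keratins in each library, with 6 vehicle libraries as circles and 5 evexomostat libraries as squares, numbered by replicate, and the group mean ± SD beside them (ends below 0 not drawn). The groups overlap in every panel, and KRT5, KRT14 and KRT6A each have an evexomostat library far above the other 4.

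Among the keratins of simple epithelium, KRT8, the type II chain that luminal cells make from early development on, was 333 ± 123 RPM under vehicle (SD, n = 6) and 330.4 ± 50.3 under evexomostat (SD, n = 5). Vehicle libraries ran from 164 (vehicle 005) through a median of 309 to 537 RPM (vehicle 007). Evexomostat libraries 002, 003, 004, 005 and 007 had 255, 382, 326, 370.0 and 319 RPM. The whole evexomostat range of KRT8 thus lay inside the vehicle range. KRT8 had a log2 fold change of -0.12 ± 0.25 (SE), with a 95% interval from -0.66 to 0.41 and an adjusted p of 0.892 in edgeR's quasi-likelihood test. The sign of this estimate turned in some alternative settings.

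KRT18, the type I partner of KRT8, was 129 ± 26.3 RPM under vehicle (SD, n = 6) and 172 ± 23.3 under evexomostat (SD, n = 5). Vehicle libraries ran from 98.7 through a median of 125 to 159 RPM. Evexomostat libraries 002, 003, 004, 005 and 007 had 149, 196, 171, 149 and 195 RPM. All 5 evexomostat libraries lay above the vehicle median, and vehicle 001 and 007, each at 159 RPM, reached into their range. Its log2 fold change was 0.30 ± 0.18 (SE; 95% interval -0.08 to 0.68), with an adjusted p of 0.493 in edgeR's quasi-likelihood test. Without vehicle 001 these became 0.42 and 0.108, and the smallest adjusted p over all settings was 0.0515, with limma-voom quality weights. In the authors' deposited table KRT18 had the smallest unadjusted p of the 10 keratins, 0.0272, at a log2 fold change of 0.41 and an adjusted p of 0.465.

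KRT7, a type II chain of ducts and glands, was 9.48 ± 3.65 RPM under vehicle (SD, n = 6) and 7.22 ± 1.63 under evexomostat (SD, n = 5). Vehicle libraries ran from 4.35 through 10.7 to 13.5 RPM, with vehicle 003 and 007 low and the other 4 above 10. Evexomostat libraries 002, 003, 004, 005 and 007 had 7.88, 9.38, 7.68, 5.57 and 5.60 RPM. All 5 lay below the vehicle median and above the lowest vehicle library. The log2 fold change was -0.49 ± 0.28 (SE; 95% interval -1.10 to 0.12; adjusted p = 0.492 in edgeR's quasi-likelihood test).

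KRT19, a small type I chain that lacks most of the usual tail domain and is a standard marker of luminal cells and of carcinoma cells in blood, was close to the floor. It had 34, 24, 21, 11, 1 and 0 counts in vehicle 001, 003, 004, 005, 006 and 007, and 16, 30, 33, 46 and 39 counts in evexomostat 002, 003, 004, 005 and 007. These are 0.493 ± 0.525 RPM under vehicle (SD, n = 6) and 1.18 ± 0.408 under evexomostat (SD, n = 5). Vehicle 001 (1.42 RPM) was as high as most evexomostat libraries, vehicle 003 and 004 exceeded evexomostat 002, and vehicle 007 had no count where the floor of 3 counts is 0.105 RPM. The log2 fold change was 1.13 ± 0.72 (SE; 95% interval -0.41 to 2.67; adjusted p = 0.546 in edgeR's quasi-likelihood test). Without vehicle 001 it was 1.81 with an adjusted p of 0.115 in the same test, and with quality weights in limma-voom the adjusted p was 0.0533.

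Among the keratins of basal and stratified epithelium, KRT17, a type I chain induced in wounded, hyperproliferative and tumour epithelium, had the highest level. It was 526 ± 226 RPM under vehicle (SD, n = 6), running from 219 (vehicle 007) through a median of 525 to 851 (vehicle 001), and 376 ± 119 under evexomostat (SD, n = 5). Evexomostat libraries 002, 003, 004, 005 and 007 had 184, 437, 459.6, 462 and 336 RPM. All 5 lay below the vehicle median, but vehicle 005 was lower than 3 of them and vehicle 007 lower than 4. For KRT17 the log2 fold change was -0.61 ± 0.33 (SE; 95% interval -1.32 to 0.11; adjusted p = 0.464 in edgeR's quasi-likelihood test). Without vehicle 001, the library with the most KRT17, it was -0.35 with an adjusted p of 0.486.

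KRT6A, a type II partner of KRT17 and KRT16, was 18.8 ± 13.6 RPM under vehicle (SD, n = 6) and 9.80 ± 7.70 under evexomostat (SD, n = 5). The vehicle values fell into 2 sets of 3, with 22.5, 26.2 and 41.0 RPM in vehicle 003, 004 and 006 and 7.84, 7.77 and 7.48 RPM in vehicle 001, 005 and 007. Evexomostat libraries 002, 003, 004, 005 and 007 had 3.46, 6.66, 8.58, 23.2 and 7.11 RPM. Evexomostat 005 thus sat with the higher vehicle set and the other 4 near the lower one or below it. Its log2 fold change was -1.01 ± 0.53 (SE; 95% interval -2.14 to 0.13; adjusted p = 0.438 in edgeR's quasi-likelihood test), and it ran from -1.60 to -0.65 when single libraries were left out.

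KRT5, the type II chain of basal cells, varied more between tumours than almost any tested gene, with a standard deviation of log2 level within groups at the 99.8th percentile. Vehicle 001, 003, 004, 005, 006 and 007 had 27.1, 9.66, 65.1, 17.7, 152 and 257 RPM. Evexomostat 002, 003, 004, 005 and 007 had 9.16, 19.0, 52.9, 188 and 35.9 RPM. High KRT5 therefore occurred in both groups, in vehicle 006 and 007 and in evexomostat 005, and the highest library had 28.0 times the level of the lowest. The group means were 88.0 ± 97.8 (SD, n = 6) and 60.9 ± 72.7 RPM (SD, n = 5). The estimated log2 fold change was -0.62 ± 0.86 (SE; 95% interval -2.47 to 1.22; adjusted p = 0.822 in edgeR's quasi-likelihood test). It was 0.11 without vehicle 007 and -1.67 without evexomostat 005.

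KRT14, the type I partner of KRT5, was 5.56 ± 3.44 RPM under vehicle (SD, n = 6; lowest 1.40, median 5.55, highest 10.9) and 6.94 ± 9.95 under evexomostat (SD, n = 5). Evexomostat 002, 003, 005 and 007 had 1.34, 2.81, 4.01 and 1.89 RPM, all below the vehicle median, and evexomostat 004 had 24.7 RPM, above every vehicle library. The tumour with the most KRT14 was therefore not one of those with the most KRT5. The log2 fold change of 0.22 ± 0.71 (SE; 95% interval -1.31 to 1.76; adjusted p = 0.936 in edgeR's quasi-likelihood test) took its sign from that library, since it was -1.25 with an adjusted p of 0.400 without it.

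KRT80, a type II chain that lies near desmosomes and at cell edges in many epithelia, was 152 ± 63.0 RPM under vehicle (SD, n = 6) and 174 ± 18.8 under evexomostat (SD, n = 5). Vehicle 001 had 48.3 RPM and the other 5 vehicle libraries 129 to 229.6, and the evexomostat libraries lay between 153 and 201. Its log2 fold change was 0.13 ± 0.27 (SE; 95% interval -0.45 to 0.70; adjusted p = 0.897 in edgeR's quasi-likelihood test), and -0.04 without vehicle 001. KRT80 has the longest transcript of the 10, at 3859 bases. PLEC, which encodes the very large keratin-binding protein plectin, was also low in vehicle 001, at 356 RPM beside 2044 to 3457 in the other vehicle libraries. Whether RNA quality had a part in these low values was not tested.

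KRT81, a type II keratin of hair cortex that some breast carcinoma cells also transcribe, had only 4 to 24 counts per library. It was 0.391 ± 0.208 RPM under vehicle (SD, n = 6; lowest 0.211, median 0.341, highest 0.778) and 0.350 ± 0.167 under evexomostat (SD, n = 5; 0.150 to 0.592). KRT81 had a log2 fold change of -0.24 ± 0.40 (SE; 95% interval -1.09 to 0.62; adjusted p = 0.863 in edgeR's quasi-likelihood test). A share of 25.6% of its transcript's windows of 150 bases also occurs in KRT86, so its count is uncertain.

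**Figure D2:**
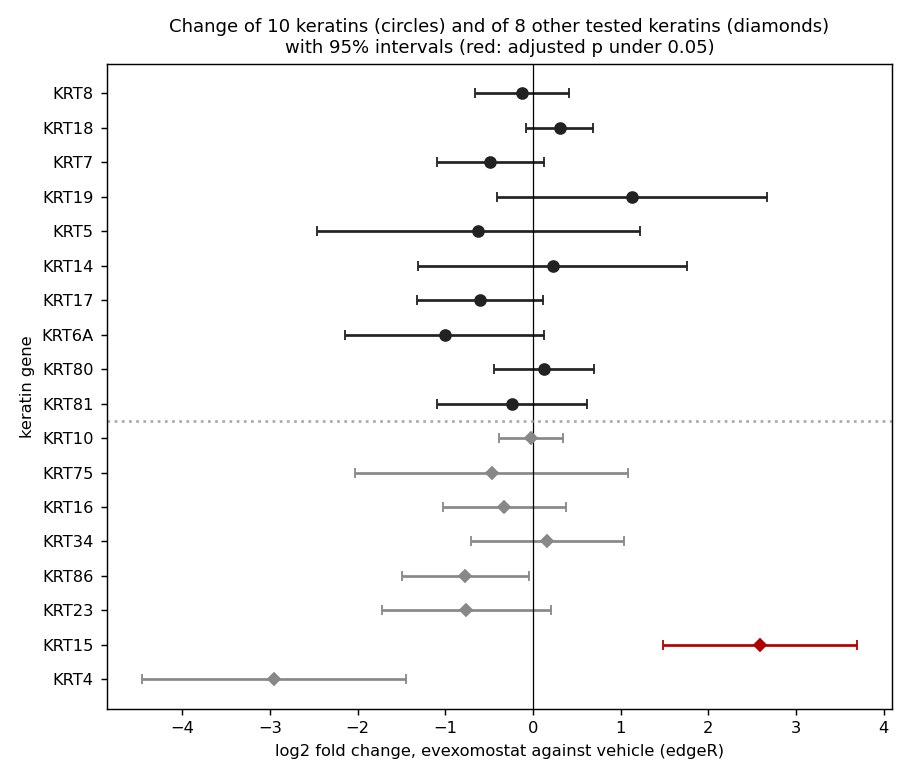
Log2 fold change of evexomostat against vehicle from edgeR with its 95% interval, for the 10 keratins (circles) and the 8 other keratins that passed the count filter (diamonds). Each of the 10 intervals crosses 0, from the narrow one of KRT18 (-0.08 to 0.68) to the wide one of KRT5 (-2.47 to 1.22), and only KRT15 is drawn in red for an adjusted p under 0.05.

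The precision with which the groups could be compared differed between the keratins. Within groups, 9 of the 10 varied more between libraries than the median tested gene, whose SD was 0.37 on the log2 scale, the exception being KRT18 at the 36.5th percentile. KRT5, KRT19, KRT14 and KRT6A were at percentiles 99.8, 99.4, 99.2 and 96.8, and the intervals of their fold changes were the widest of the 10.

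To compare levels between genes, RPM was divided by the length of the principal transcript in kilobases. On this scale KRT17 was highest at 277 ± 117 RPM per kb (SD, n = 11), followed by KRT8 at 156 ± 43.7 and KRT18 at 95.1 ± 20.9. KRT80 at 42.0 ± 12.3 and KRT5 at 29.9 ± 33.3 came next. KRT6A at 6.37 ± 5.10, KRT7 at 4.82 ± 1.72 and KRT14 at 3.72 ± 4.08 were lower still, and KRT19 at 0.578 ± 0.414 and KRT81 at 0.193 ± 0.094 lowest. The keratin message of these tumours was thus led by a wound and tumour keratin and the KRT8 and KRT18 pair, with the luminal marker KRT19 near the floor. Neighbours whose order changed between libraries were KRT17 and KRT8 (KRT17 higher in 9 of 11 libraries), KRT80 and KRT5 (8 of 11), KRT5 and KRT6A (10 of 11), KRT6A and KRT7 (5 of 11), KRT7 and KRT14 (8 of 11), and KRT19 and KRT81 (8 of 11). KRT8 exceeded KRT18, KRT18 exceeded KRT80 and KRT14 exceeded KRT19 in all 11 libraries.

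**Figure D3:**
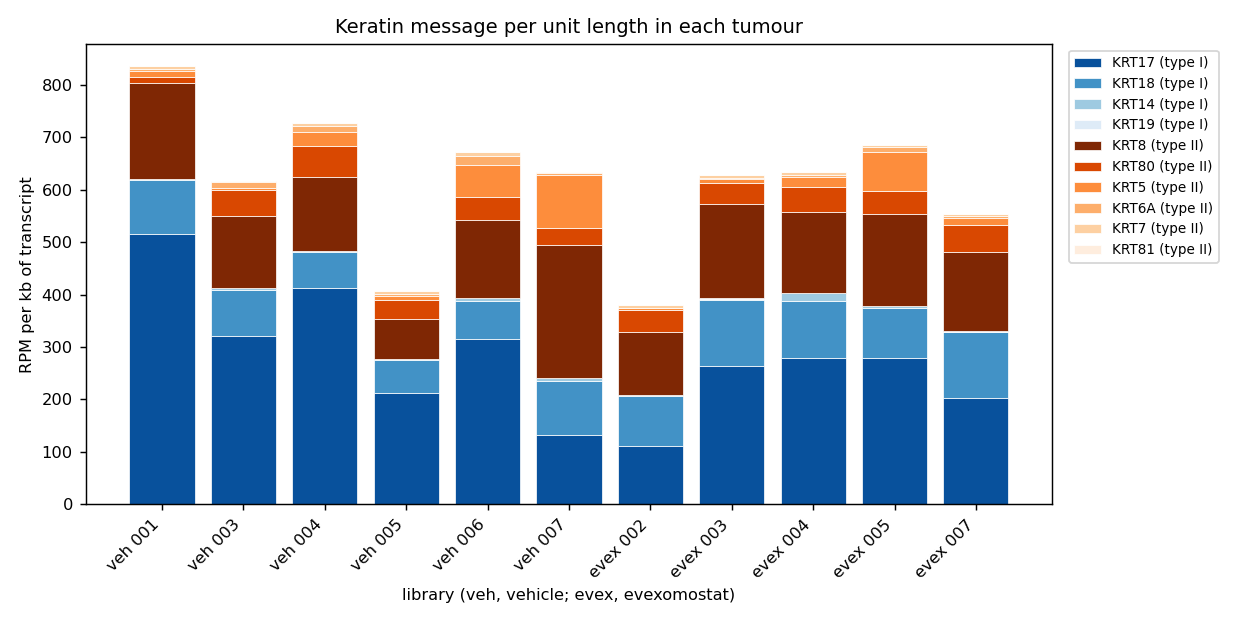
Stacked RPM per kb of transcript of the 10 keratins in each library, type I chains in blue and type II chains in orange to brown. KRT17 is the largest block in 9 libraries and KRT8 in 2 (vehicle 007 and evexomostat 002), and the KRT5 block is wide in vehicle 006, vehicle 007 and evexomostat 005.

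The 10 genes made up 94.1% to 97.1% of the message per kb of all 55 keratins. The share of KRT17 in the keratin total ran from 20.0% to 59.9% in vehicle libraries (median 49.9%) and had a median of 39.0% in evexomostat libraries, inside the vehicle range. KRT5 took 0.596% to 15.3% of the total. Within the 10 genes alone, type I message exceeded type II message in 10 of 11 libraries. The ratio ran from 0.614 (vehicle 007) to 2.89 under vehicle, with a median of 2.00, and from 1.21 to 1.76 under evexomostat, with a median of 1.48. The ratio of KRT8 to KRT18 per kb was 1.22 to 2.48 under vehicle (median 1.91) and 1.20 to 1.83 under evexomostat (median 1.40), so the groups overlapped here too. The ratio of KRT5 to KRT14 per kb ran from 0.925 to 30.7.

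Whether partners of a filament pair rose and fell together was examined over the 11 libraries for 5 pairs, on log2 CPM with TMM scaling, with two-sided permutation tests of 100000 resamples adjusted over the 5 pairs. KRT8 and KRT18 had Pearson's r = 0.62 (permutation p = 0.0360, adjusted 0.159) and Spearman's rho = 0.69 (p = 0.0225, adjusted 0.0563). Without the 2 libraries farthest from the KRT8 median r was 0.46. As deviations from the group means, r was 0.76 (permutation p adjusted 0.0237) and rho 0.72 (adjusted 0.0822). By r, tumours with more KRT8 than their group's mean therefore tended to have more KRT18, although rho and the pooled relation missed the threshold after adjustment. These 2 genes overlap on opposite strands, and the part of shared reads in this relation was not tested.

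KRT6A and KRT17 had r = 0.58 (permutation p = 0.0637, adjusted 0.159) and rho = 0.80 (p = 0.0047, adjusted 0.0234), and 0.54 and 0.80 without the 2 libraries farthest from the KRT6A median. Without vehicle 001, r was 0.80 (permutation p adjusted 0.0191). As deviations from the group means r was 0.47 (adjusted 0.253) and rho 0.54 (adjusted 0.188), so within the groups the relation did not pass. KRT5 and KRT14 had r = 0.47 (permutation p adjusted 0.173), KRT7 and KRT18 r = -0.49 (adjusted 0.173), and KRT8 and KRT19 r = -0.10 (adjusted 0.746). For KRT8 and KRT19 rho had the other sign, at 0.38 (permutation p adjusted 0.249). Without vehicle 007, which had no KRT19 count, their rho was 0.84 (permutation p adjusted 0.0187) and r 0.51 (adjusted 0.223).

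**Figure D4:**
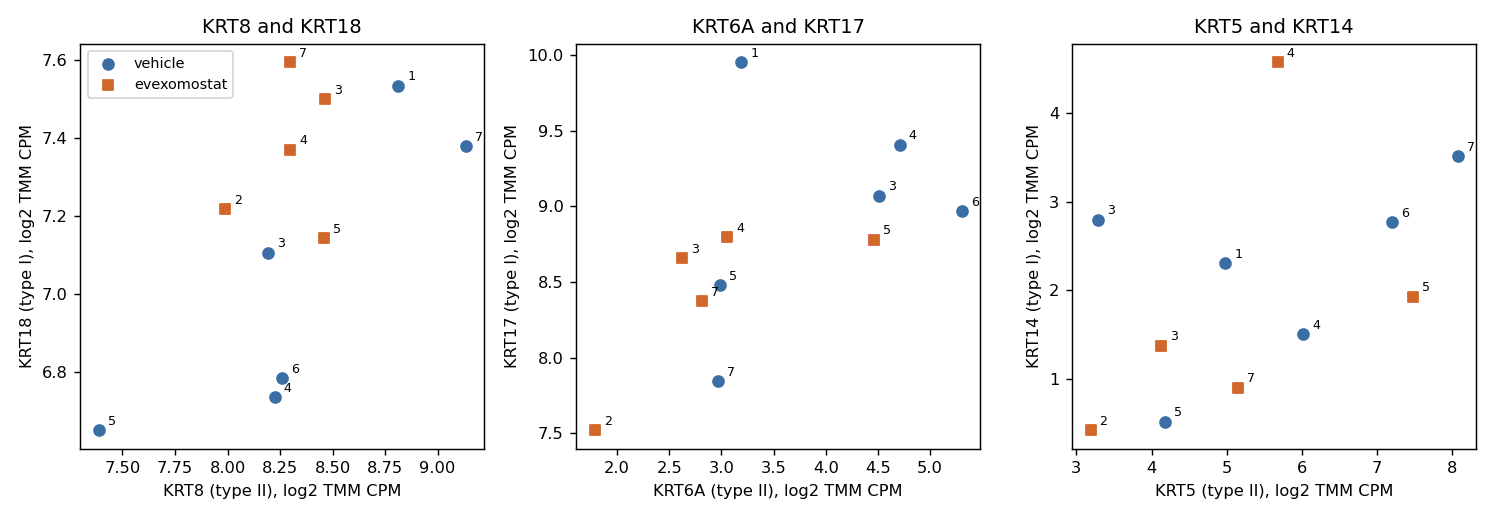
Log2 CPM with TMM scaling of the type I chain against the type II chain for 3 partner pairs, 1 point per library with its replicate number (circles vehicle, squares evexomostat). KRT18 is generally higher where KRT8 is higher (r = 0.62), vehicle 001 lies above the other points for KRT6A and KRT17 (r = 0.58), and evexomostat 004 stands alone in the panel of KRT5 and KRT14 (r = 0.47).

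For each keratin with a mean level of at least 1 CPM, the 2 tested genes with the most similar pattern over the 11 libraries were taken by Pearson's r of log2 CPM. These are the highest of 16653 values over libraries that share depth and scaling, and are given as a description. They were NMI (0.92) and WWOX (0.90) for KRT8, NUDT13 (0.91) and MRPL38 (0.90) for KRT18, and KRT86 (0.95) and GLT8D1 (0.93) for KRT7. OS9 and DOK6 (0.88 each) were nearest to KRT5, and UBE2D3-AS1 (0.90) and FOXD2 (0.87) to KRT14. IGFBP7 (0.93) was nearest to KRT17, and PLA2R1 (0.89) and VMAC (0.88) to KRT6A, and ZNF385A and YEATS2-AS1 (0.95 each) to KRT80. None of these genes came up for more than 1 keratin. KRT86 overlaps KRT7 on the same strand in GENCODE release 29, so reads of these 2 genes may not have been separated.

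In that annotation the type I genes KRT14, KRT17 and KRT19 lie on chromosome 17, and KRT18 lies on chromosome 12 with the 6 type II genes. KRT8 and KRT18 are neighbours that overlap on opposite strands, and 10.97% of the KRT18 windows of 150 bases also occur in KRT8. KRT6A shares 9.25% of its windows with KRT6C, which was at most 0.0702 RPM, and KRT14 shares 0.595% with KRT16, which was 4.32 to 17.1 RPM. For KRT8, KRT19, KRT5, KRT17 and KRT80 the share was 0. Whether the counting used strand is not given in the sources used here, so reads of overlapping genes on opposite strands cannot be told apart.

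In the rest of the family, 43 further keratins were listed and 8 passed the count filter. KRT15, a type I keratin of basal cells that has no fixed partner of its own, rose under evexomostat, and the other 7 did not pass (0.174% of all tested genes were called higher). Its counts were 3, 7, 16, 5, 3 and 3 in the vehicle libraries and 16, 22, 76, 28 and 25 in the evexomostat libraries. In RPM these were 0.183 ± 0.139 (SD, n = 6) and 1.21 ± 0.933 (SD, n = 5), with every evexomostat library above every vehicle library. The log2 fold change was 2.58 ± 0.51 (SE) with an adjusted p of 0.0462 in edgeR's quasi-likelihood test. The call held in 2 of the 11 fits that left out 1 library, with adjusted p from 0.0278 to 0.117. KRT15 and KRT14 had the same highest library, evexomostat 004. Without vehicle 007 the keratin past the threshold was not KRT15 but KRT4, a type II keratin of stratified mucosa, which was lower (0.743 ± 0.469 RPM under vehicle, SD, n = 6, and 0.102 ± 0.0899 under evexomostat, SD, n = 5).

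Of the other 42 keratins, 7 had no count in any library and 30 stayed below 0.5 RPM throughout, among them KRT1 of the suprabasal skin, listed at 0 in all 11. KRT16, the usual partner of KRT6A, was 10.3 ± 4.98 RPM under vehicle (SD, n = 6) and 8.77 ± 2.40 under evexomostat (SD, n = 5). KRT75, a type II keratin of the hair follicle's companion layer, was high in vehicle 004, 006 and 007 and evexomostat 005 (18.1, 24.8, 22.7 and 25.3 RPM), the 4 libraries with the most KRT5, against 1.45 to 11.7 RPM in the other 7. KRT75 was singled out after its values were seen.

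The tumours high in KRT5 were not alike in other basal genes, which were also singled out after their values were seen. COL17A1, a collagen of hemidesmosomes, was 8.95 RPM in vehicle 006 and 17.2 in evexomostat 005 but 0.351 in vehicle 007, which had the most KRT5. TP63, the p63 regulator of basal epithelium, was 12.1, 6.31 and 0.527 RPM in the same 3 tumours. The 6 markers of host skin summed to 37.7 to 71.0 RPM under vehicle and 39.1 to 65.9 under evexomostat, with KRT1 and KRT25 at 0 in all libraries. Most of each sum was KRT10, at 19.5 to 34.2 RPM over the 11 libraries, and TCHH, at 13.2 to 35.2 RPM. FLG was at 0.667 to 16.4 RPM. The 8 markers of skeletal muscle summed to 406 RPM in evexomostat 005, the library high in KRT5 and KRT6A, and to 1.68 to 48.1 in the other evexomostat and 1.55 to 14.7 in the vehicle libraries. Of the 8, 5 were tested, all with a higher estimate under evexomostat (median log2 fold change 3.85 beside -0.04 over all tested genes), 4 with an unadjusted p under 0.05 and 0 past the threshold. None of the 8 was at 0 in all libraries, and CKM, MYLPF and TNNT3 stayed below 0.5 RPM. Markers listed for host stroma (8 genes) summed to 397 to 2086 RPM under vehicle and 520 to 1143 under evexomostat. Those of immune cells (6 genes) summed to 71.1 to 122 and 89.8 to 111 RPM, and those of endothelium (6 genes) to 10.4 to 19.1 and 10.5 to 14.8. The part of host tissue in the keratin values, and in the changes of KRT15 and KLF5, was not tested.

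BT-474 is known as a luminal line, and the label was checked against receptor genes and 17 markers of luminal epithelium. ESR1, the estrogen receptor gene that a line positive for hormone receptors should carry, was at 0.0375 to 0.597 RPM (1 to 17 counts) in the 11 libraries, which goes against the label HR+. ERBB2, which encodes HER2, was at 23.0 to 65.3 RPM, in every library under the lowest KRT8 value of 164 RPM. Whether so moderate a level goes with the label Her2+ was not tested. Of the 17 luminal markers 12 passed the count filter, 7 with a higher and 5 with a lower estimate (median log2 fold change 0.08), and 0 passed the test. Their sum was 148 to 228 RPM under vehicle and 140.3 to 198 under evexomostat, and most of it was XBP1, a secretory regulator, at 138 ± 32.9 (SD, n = 6) and 119 ± 11.7 RPM (SD, n = 5). CLDN4, a claudin of tight junctions, was 13.7 ± 6.04 and 21.4 ± 11.4 RPM, and the adhesion genes EPCAM and CDH1 were at 0.316 to 4.64 and 0.140 to 1.39 RPM. CD24 was at 0 in all libraries, and RAB25, AGR2, TFF1 and TFF3 stayed below 0.5 RPM. The annotation used for counting is not given, so whether reads of CD24 could be counted at all is unknown. Of the 4 keratins of simple epithelium, KRT8 and KRT18 were abundant beside these values and KRT7 and KRT19 were not. The identity of the line was not tested and is in doubt from the ESR1 values. The low EPCAM, CDH1 and KRT19 are also unlike a luminal line, while the abundant KRT8 and KRT18 are not.

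The 13 basal and myoepithelial markers all passed the count filter, 9 with a higher and 4 with a lower estimate (median log2 fold change 0.20), and 0 passed the test. They summed to 1152 to 1895 RPM under vehicle and 1689 to 2387 under evexomostat, led by VIM and CAV1. CNN1, a smooth muscle calponin, had a log2 fold change of 2.83 ± 0.62 (SE) with an adjusted p of 0.0665 in edgeR's quasi-likelihood test. Its estimate was higher under evexomostat in all 23 settings and passed in 6 of them, including the fits without vehicle 001 (adjusted p = 0.0323) and without vehicle 006 (0.0232). In bulk tissue, a change in the number of cells of a type and a change in RNA per cell cannot be told apart.

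Filament proteins of other types were listed too. Of 15, 11 were tested, 7 with a higher and 4 with a lower estimate (median log2 fold change 0.30), and 0 passed. VIM, the vimentin of mesenchymal and many carcinoma cells, was 1033 ± 193 RPM under vehicle (SD, n = 6) and 1371 ± 217 under evexomostat (SD, n = 5), with an adjusted p of 0.473 in edgeR's quasi-likelihood test. LMNA, the A-type lamin of the nuclear envelope, was 1133 ± 131 and 1126 ± 84.7 RPM.

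Keratin filaments end on desmosomes and hemidesmosomes. Of 16 desmosomal and linker genes 11 were tested, 2 with higher and 9 with lower estimates (median -0.15), and of 6 hemidesmosomal genes all were tested, 3 each way (median -0.04). None of the 17 passed the test. DSP, which ties keratin to the desmosome, ran from 40.5 to 421 RPM under vehicle and 58.0 to 133 under evexomostat. DSG2, the desmosomal cadherin of simple epithelium, was 137 ± 29.7 RPM under vehicle (SD, n = 6) and 103 ± 10.1 under evexomostat (SD, n = 5). Its log2 fold change was -0.50 ± 0.14 (SE; adjusted p = 0.137 in edgeR's quasi-likelihood test), and the adjusted p was 0.0341 without vehicle 001. PKP1, a plakophilin of stratified epithelium, was 8.24 ± 3.69 and 4.73 ± 1.10 RPM (log2 fold change -0.87, adjusted p = 0.181 in the same test, and 0.0404 without vehicle 001). PLEC at 2171 ± 1013 and 2121 ± 148 RPM and CD151 at 204 ± 11.3 and 201 ± 14.1 RPM were the most abundant hemidesmosomal genes.

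Of 8 proteins that bind or modify keratins, 6 had a higher and 2 a lower estimate (median 0.07) and 0 passed, with YWHAE, a 14-3-3 protein, at 789 ± 92.9 and 883 ± 73.7 RPM and the casein kinase CSNK1A1 at 317 ± 24.8 and 349 ± 24.1. Of 14 cornified envelope genes 5 were tested, 1 higher and 4 lower (median -0.39), and 0 passed. TGM1, the transglutaminase that cross-links the envelope, was 14.0 ± 5.56 and 11.3 ± 3.59 RPM, and FLG, filaggrin, 8.08 ± 6.20 and 2.86 ± 1.31 RPM (adjusted p = 0.276 in edgeR's quasi-likelihood test, and 0.0448 without vehicle 001).

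Of 17 transcription factors of epithelial identity 12 were tested, 3 with higher and 9 with lower estimates (median -0.18). KLF5, a regulator of basal and proliferating epithelium, fell, and the other 11 did not pass (0.432% of all tested genes were called lower). It was 46.5, 43.7, 68.7, 41.7, 42.0 and 37.6 RPM in vehicle 001, 003, 004, 005, 006 and 007 and 18.6, 25.6, 25.5, 24.7 and 28.8 RPM in evexomostat 002, 003, 004, 005 and 007. Every evexomostat library was below every vehicle library. KLF5 had a log2 fold change of -1.02 ± 0.17 (SE) with an adjusted p of 0.0233 in edgeR's quasi-likelihood test. The call held in 6 of the 11 fits that left out 1 library, with adjusted p from 0.0117 to 0.0800, and the adjusted p was 0.0675 with the replicate number as a block.

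**Figure D5:**
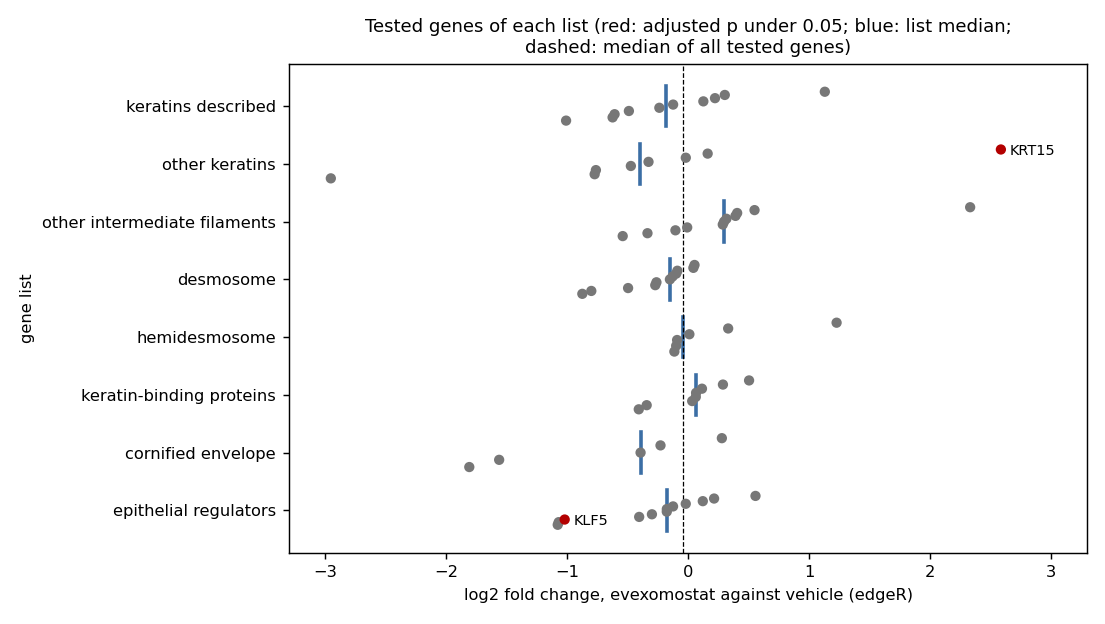
Log2 fold change of evexomostat against vehicle from edgeR for every tested gene of 8 lists, 1 point per gene, with the list median in blue and the median of all tested genes (-0.04) dashed. KRT15 (2.58) and KLF5 (-1.02) are in red for an adjusted p under 0.05, and the 10 keratins described spread from -1.01 to 1.13 on both sides of 0.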

How the data were processed

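Read counts were used as deposited, as whole numbers for each gene symbol and library. The authors' RPM are these counts scaled to a common column total (largest difference 2e-13). The authors' deposited comparison table gives a log2 fold change, p-values and other group summaries. The submitters' processing notes name bcl2fastq 2.17, STAR 2.7.5c, featureCounts (Subread), edgeR and a GRCh37 build. Their settings, the annotation, strand use and treatment of mouse reads are not given in the sources used here.

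Libraries were grouped by title. Counts were filtered with filterByExpr (minimum count 10, total 15), TMM-scaled and tested by edgeR's quasi-likelihood method with no covariates (versions: edgeR 4.0.16, limma 3.58.1, R 4.3.3). Benjamini-Hochberg adjustment ran over 16653 of 28152 genes, with a threshold of 0.05. RPM are as deposited. SE are those implied by the F statistic. Counting error is small for the abundant keratins, and the floor is 3 counts. Transcript lengths and overlaps came from GENCODE release 29 (GRCh38), so no coordinates are given. The fits were tested on simulated data. No pair of libraries in a group agreed within sampling noise (lowest chi-square per degree of freedom 16.4).

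The members and lists were chosen with earlier results of these data known. All 10 keratins are named, with the called genes of each list or else its 2 most abundant. PKP1, EPCAM, CDH1, ESR1, ERBB2, CNN1 and KRT4 fall outside this rule and were added after their values were seen, like those so marked in the text. Alternatives were other scalings, filters and pseudocounts (1 and 0.1), DESeq2 1.42.0, limma-trend, limma-voom (plain or with quality weights), leaving out each library, and a block. A gene with a pattern like that of KRT17 is not reported here.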

Additional observations from a re-analysis of the deposited data

Results flagged for a closer look

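Of the highest and lowest values of the 10 keratins in each group, 4 stood apart from the rest of their group by Dixon's test. For normally distributed values, its 95% critical value flags about 1 in 20 groups by chance. KRT5 was 188 RPM in evexomostat 005, where the other 4 evexomostat libraries had 9.16 to 52.9. KRT6A was 23.2 RPM in the same tumour, beside 3.46 to 8.58. KRT14 was 24.7 RPM in evexomostat 004, beside 1.34 to 4.01. KRT81 was 0.778 RPM in vehicle 006, beside 0.211 to 0.423 in the other 5 vehicle libraries, and rests on 24 counts. Its gap over the group's range was 0.626 against a critical value of 0.625, but 0.602, under that value, on CPM with TMM scaling. The other 3 stood apart on RPM and on this CPM. Both are linear scales, and log2 values, used elsewhere here for the spread between libraries, were not put to Dixon's test. No cause was tested for these values.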

How the results depend on the processing

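The count of the 10 keratins past the threshold was 0 in all 22 alternatives. KRT19 and KRT81 could not be fitted with a minimum mean log2 CPM of 1. KRT18, KRT19, KRT7, KRT17 and KRT6A kept their direction in every alternative that could be fitted, but not their size: KRT17 was -0.06 with the replicate block and -0.16 with no block in the same 8 libraries, beside -0.61, KRT7 -0.23 and -0.32 beside -0.49, and KRT6A -0.60 and -0.58 beside -1.01. For the others, none past the threshold, the sign of the log2 fold change turned in some. KRT8 was 0.16 with quality weights, 0.0629 on log2(RPM + 1), 0.0633 on log2(RPM + 0.1), 0.14 with the replicate block, 0.0091 with no block in the same 8 libraries, and 0.0684 without vehicle 007 (range on leaving out 1 library -0.26 to 0.0684). KRT5 was 0.14 with quality weights, 0.21 with the replicate block, and -1.67 to 0.11 on leaving out 1 library. KRT14 was -0.39 in limma-voom, -0.19 on log2(RPM + 1), -0.28 on log2(RPM + 0.1), and -1.25 to 0.54 on leaving out 1 library. KRT80 was -0.0351 with the replicate block, -0.0608 with no block, and -0.0405 to 0.27 on leaving out 1 library, and KRT81 -0.50 to 0.0404. The cause was not tested.

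The number of all genes past the threshold was 101, but 649 in DESeq2, 1059 with quality weights, 733 in the 8 libraries with no replicate block, and 1 to 865 on leaving out 1 library, 865 being without vehicle 001. Of the further keratins 2 passed in DESeq2 and 2 with quality weights (KRT4, lower, and KRT15), 0 with a minimum mean log2 CPM of 1 and 0 on log2(RPM + 1), and 0 to 1 on leaving out 1 library (KRT4 in place of KRT15 without vehicle 007, where KRT15 had an adjusted p of 0.0838). Of the desmosome and hemidesmosome genes 2 passed in DESeq2 and 2 with quality weights (PKP1 and DSG2, lower), and 0 to 2 on leaving out 1 library, 2 being without vehicle 001. Of the other filament genes 1 passed in DESeq2 (DES) and 1 with quality weights (LMNB1). Among the partner pairs, KRT8 with KRT18 passed as deviations from the group means (r = 0.76), with 0.42 to 0.69 on leaving out 1 library. KRT6A with KRT17 had 0.39 to 0.80, passing without vehicle 001 (0.80), and KRT8 with KRT19 had -0.29 to 0.51, the highest without vehicle 007. By rho, KRT8 with KRT19 passed without vehicle 007 (0.84) and KRT8 with KRT18 without evexomostat 007 (0.78).

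Numbers 003, 004, 005 and 007 occur in both groups, but the labels do not say that they pair libraries, and correlations of the deviations of same-numbered libraries were -0.27, 0.07, 0.05 and -0.10. With the replicate block 107 genes and 0 of the 10 keratins passed. Depth limits KRT19 and KRT81, with at most 46 and 24 counts a library.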
